A study of Mus musculus with 16 samples.

Results

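Transcripts of 10 antioxidant genes, most of them known targets of the transcription factor NRF2, were followed across 16 arrays of mouse liver. The genes were Nqo1, Hmox1, Gclc, Gclm, Txnrd1, Srxn1, Cat, Sod1, Sod2 and Gpx1, chosen by name. Each was read from the table row whose annotation gives that symbol alone. All 10 had such a row, out of 22180 genes with a row of this kind, and each had 1 row only. All 10 passed the filter on low values that left 13555 genes for testing, and each lay above the array's median on 16 of 16 arrays.

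The samples were taken at the age of 18 months from 8 mice of C57BL/6J background. The groups were tumour and non-tumour liver of 4 MYC/REG3A mice (labelled MYC+/+, REG3A+/+) and tumour and non-tumour liver of 4 MYC mice (labelled MYC+/+, REG3A-/-). The breeding notes say that heterozygous animals were mated to found both lines, and the labels' genotype is given here as it stands. All mice carried the WHC-MYC transgene, which expresses the c-MYC oncogene in liver under woodchuck hepatitis virus control, so no group was free of transgenic MYC. REG3A is a secreted lectin-like protein, and the promoter of its transgene is not given in the sources used here. Tumour and non-tumour tissue were dissected from the same liver, so each tumour was compared with its own non-tumour liver. The non-tumour samples are therefore liver of tumour-bearing mice.

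NRF2, encoded by Nfe2l2, is held in the cytoplasm by KEAP1, which hands it on for degradation. Oxidants and electrophiles modify KEAP1, NRF2 accumulates, pairs with a small MAF protein and binds antioxidant response elements near its target genes, and BACH1 competes for such elements. The targets supply quinone reduction, haem breakdown, glutathione and thioredoxin reduction, while superoxide dismutases, catalase and glutathione peroxidase remove superoxide and peroxides directly. In liver several of these enzymes are abundant in hepatocytes, and some human liver cancers carry mutations that activate NRF2.

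The values are log2 expression on the RMA scale, on which a difference of 1 is a doubling. They are relative within an array, and levels of different genes are not compared here. Markers of hepatocytes matched the labelled tissue, with a mean log2 level of 11.2 to 11.8 over the 11 listed genes on every array. On the first principal component the tumours of MYC/REG3A mice 2 and 4 stood apart, between the other 6 tumours and the 8 non-tumour livers. The SD of the tumour change over all tested genes was 0.336 and 0.429 in those 2 mice and 0.624 to 0.729 in the other 6, so every result on MYC/REG3A tumours was also computed without them. Myc, whose array row may or may not read the transgene's RNA, fell by 0.59 in MYC tumours (SE 0.127, limma adjusted p = 0.00673). In MYC/REG3A tumours its change was -0.14 (SE 0.127, adjusted p = 0.486). The Myc level of MYC/REG3A mouse 2 was 9.37 in the tumour and 9.24 in non-tumour liver, against 6.84 to 7.97 on the other arrays.

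The promoter sequences show which of the genes carry the core of an antioxidant response element close to the start site. RefSeq promoters of assembly GRCm38.p6, from 250 bases before to 50 bases after the start site, were at hand for 8 of the 10 genes, with 3 for Txnrd1 and 10 in all; Hmox1 and Gclc had no entry. The core TGACNNNGC was searched on both strands and was found in 4 of the 10 windows, in Gclm, Srxn1, Sod1 and 1 promoter of Txnrd1. The same search found it in 12.4% of all 32851 promoters of this length. The form TGAGNNNGC, added after the sequences had been seen, occurred in the Srxn1 window alone, at 2 places, against 17.6% of all promoters. The E-box CACGTG, bound by MYC with MAX, occurred in 0 of the 10 windows, against 7.15% of all promoters. Among the 13446 promoters of tested genes the shares were somewhat higher. They were 14.1% for TGACNNNGC, 19.5% for TGAGNNNGC and 9.62% for the E-box. The 4 windows follow, 5′ to 3′ on the gene's strand, with either form of the core in capitals. All 4 lie on the plus strand, Gclm at chr3:122245307-122245606, Txnrd1 at chr10:82858956-82859255, Srxn1 at chr2:152105274-152105573 and Sod1 at chr16:90220512-90220811.
Gclm: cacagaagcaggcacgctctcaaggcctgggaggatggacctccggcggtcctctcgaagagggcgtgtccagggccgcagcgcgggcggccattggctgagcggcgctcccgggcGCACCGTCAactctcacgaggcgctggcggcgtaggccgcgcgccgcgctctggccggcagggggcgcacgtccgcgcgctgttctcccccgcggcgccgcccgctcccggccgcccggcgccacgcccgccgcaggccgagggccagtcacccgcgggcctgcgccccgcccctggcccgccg
Txnrd1: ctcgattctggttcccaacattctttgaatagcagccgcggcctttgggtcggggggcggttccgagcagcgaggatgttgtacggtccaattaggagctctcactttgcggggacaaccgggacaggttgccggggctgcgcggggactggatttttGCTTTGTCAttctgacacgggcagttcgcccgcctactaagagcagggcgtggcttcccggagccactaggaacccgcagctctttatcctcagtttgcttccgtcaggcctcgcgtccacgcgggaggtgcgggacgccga
Srxn1: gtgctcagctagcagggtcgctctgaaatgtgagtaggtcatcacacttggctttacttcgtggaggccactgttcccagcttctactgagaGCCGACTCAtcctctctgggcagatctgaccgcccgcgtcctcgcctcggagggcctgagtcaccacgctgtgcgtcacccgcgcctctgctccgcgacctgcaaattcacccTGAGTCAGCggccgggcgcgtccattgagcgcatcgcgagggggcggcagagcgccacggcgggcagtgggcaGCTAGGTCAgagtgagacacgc
Sod1: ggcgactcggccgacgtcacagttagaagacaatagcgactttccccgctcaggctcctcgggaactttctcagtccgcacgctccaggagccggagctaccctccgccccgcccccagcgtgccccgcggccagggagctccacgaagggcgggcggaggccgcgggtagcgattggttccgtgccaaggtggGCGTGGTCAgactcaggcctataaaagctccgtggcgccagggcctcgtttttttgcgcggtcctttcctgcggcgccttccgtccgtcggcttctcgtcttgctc
The Gclm match reads TGACGGTGC on the opposite strand, 134 bases before the start site of the listed promoter. The RefSeq start of the Gclm gene is given as chr3:122245487, which lies inside the window and before that start site. The Txnrd1 match, TGACAAAGC, lies 92 bases before the start on the opposite strand, and the Sod1 match, TGACCACGC, 56 bases before it on the opposite strand. In Srxn1 the letters TGAGTCGGC stand 158 bases before the start on the opposite strand, TGAGTCAGC 45 bases before it on the gene's strand, and TGACCTAGC 29 bases after it on the opposite strand. A match is only a run of letters, and binding of NRF2 was not measured. Sequence outside these windows was not searched, so a window without a match does not show that a gene lacks such an element.

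The first question was whether these genes differ between tumour and its own non-tumour liver. By limma, none of the 10 passed the threshold of adjusted p under 0.05, in either genotype, and leaving out MYC/REG3A mice 2 and 4 left both counts at 0. Of all tested genes 12.5% passed in MYC/REG3A mice (7.58% higher and 4.88% lower) and 33.2% in MYC mice (17.4% higher and 15.8% lower). At an unadjusted p under 0.05 the members counted 1 of 10 in MYC/REG3A mice and 2 of 10 in MYC mice, against 30.1% and 44.4% of all tested genes. The median change of the 10 was -0.05 in MYC/REG3A mice, where the median over all genes was -0.02, and -0.20 in MYC mice, where it was -0.03. No member changed by 1 or more on the log2 scale in either genotype, which 3.74% of all genes did in MYC/REG3A mice and 7.58% in MYC mice. 9 of the 10 stayed within 0.5 of no change in each genotype, as did 83.4% and 72.2% of all genes.

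**Figure D1:**
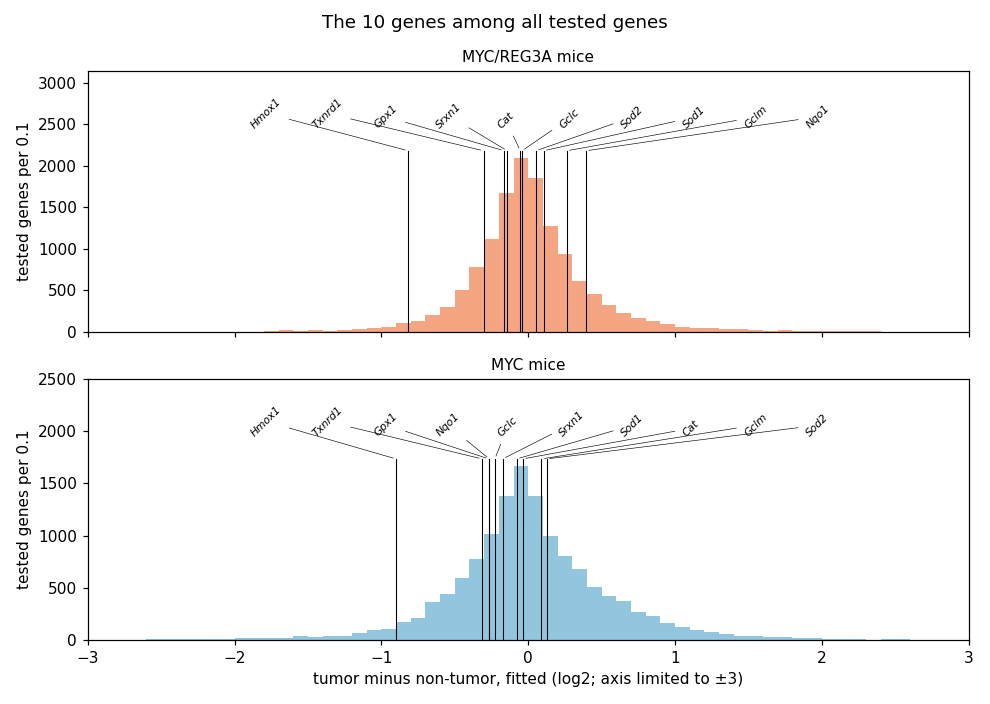
Histograms of the fitted tumour minus non-tumour difference (log2, x axis; number of tested genes per bin of 0.1, y axis) for MYC/REG3A mice above and MYC mice below, with black lines at the 10 antioxidant genes. Most of the 10 lie close to 0 in both genotypes, and Hmox1 is the farthest out, at -0.82 in MYC/REG3A mice and -0.90 in MYC mice.

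In a further comparison, added after the data had been seen, the paired changes of both genotypes were averaged over all 8 mice. Here Hmox1 and Txnrd1 fell in tumours and the other 8 did not pass. That makes 2 of 10 members, both lower, where 43% of all tested genes passed, 21.5% higher and 21.4% lower. Without MYC/REG3A mice 2 and 4 neither passed, with estimates no smaller and wider errors from fewer mice: Hmox1 differed by -1.02 (SE 0.348, limma adjusted p = 0.0535) and Txnrd1 by -0.33 (SE 0.115, adjusted p = 0.0559).

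Hmox1 encodes heme oxygenase 1, which breaks haem down to biliverdin, carbon monoxide and iron, and is strongly expressed in macrophages that take up red cells as well as in stressed hepatocytes. Its log2 level was 7.20, 6.88, 6.28 and 6.94 in the tumours of MYC/REG3A mice 1 to 4, against 8.0, 7.37, 7.77 and 7.42 in their non-tumour livers. Every tumour lay below every non-tumour liver in that genotype. In MYC mice 1 to 4 it was 7.04, 7.94, 8.0 and 7.21 in tumours, against 9.32, 7.49, 8.27 and 8.72 in non-tumour livers. The groups overlapped there, since mouse 2 had more Hmox1 in its tumour than in its non-tumour liver and mice 1 and 4 had a wide gap the other way.

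The paired difference of Hmox1 was -0.82 in MYC/REG3A mice (SE 0.372, limma adjusted p = 0.173) and -0.90 in MYC mice (SE 0.372, adjusted p = 0.0894), so it did not pass in either genotype alone. It was lower in the tumour in 4 of 4 MYC/REG3A mice and in 3 of 4 MYC mice. Over all 8 mice Hmox1 fell by 0.86 (SE 0.263, adjusted p = 0.0250), which is 0.552 times the non-tumour level, with a 95% confidence interval of 0.37 to 0.83. The spread between mice was wide: the tumour changes ran from -1.49 to -0.48 in MYC/REG3A mice and from -2.27 to 0.45 in MYC mice. The estimate over 8 mice no longer passed without MYC/REG3A mouse 1 (adjusted p = 0.0543), MYC/REG3A mouse 3 (0.0705) or MYC mouse 4 (0.0686), and its adjusted p ranged from 0.00504 to 0.0705 over 15 alternatives. In MYC mice alone it passed without mouse 2 (-1.35, adjusted p = 0.0172), while its value over the alternatives ran from -1.35 to -0.44 and its adjusted p from 0.0172 to 0.361.

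Macrophage markers also fell in tumours, where Hmox1 was lower in 7 of 8 mice. Of 15 listed macrophage and Kupffer cell genes, all measured, 10 fell in MYC/REG3A tumours and 11 in MYC tumours by limma. Of all tested genes 4.88% and 15.8% fell. The 15 had median changes of -0.94 and -1.10. Their mean log2 level was 6.97 to 8.09 in MYC/REG3A tumours, against 8.30 to 8.88 in the non-tumour livers of those mice. In MYC mice it was 7.42 to 8.20 in tumours, against 8.11 to 9.44 in non-tumour livers. MYC mouse 2 went the other way for Hmox1. Its macrophage level was 7.42 in the tumour and 8.11 in non-tumour liver, with Hmox1 at 7.94 and 7.49. None of the 15 lay below the array's lower quartile on every array. Over the 16 arrays, deviations of Hmox1 from its group means correlated with those of the list's mean at 0.667, the highest among the lists of cell type markers, and MYC mouse 1, with the highest non-tumour Hmox1, also had the highest macrophage level. The part of these cells in the Hmox1 change was not tested, and in pieces of whole tissue fewer macrophages and less RNA per macrophage cannot be told apart.

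**Figure D2:**
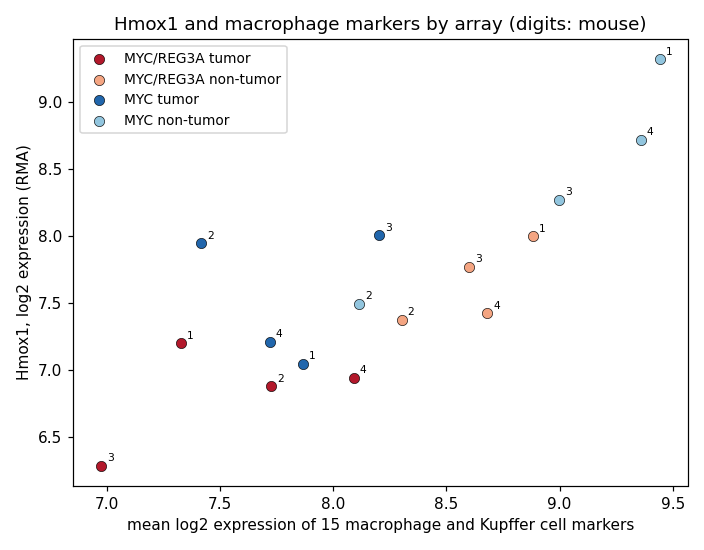
Hmox1 log2 expression (y axis) against the mean log2 expression of 15 macrophage and Kupffer cell markers (x axis), 1 point per array, coloured by group and labelled with the mouse number. MYC non-tumour livers of mice 1 and 4 lie highest on both axes, at Hmox1 levels of 9.32 and 8.72, and the tumour of MYC/REG3A mouse 3 lowest on both, at 6.28.

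The genes whose deviations from the group means were most like those of Hmox1 were C3ar1, the receptor of complement fragment C3a (r = 0.97), and Cyba, the p22phox subunit of the NADPH oxidase (r = 0.97), over 16 arrays. These are descriptions chosen as the highest among all tested genes.

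Txnrd1 encodes the cytosolic thioredoxin reductase, a selenoprotein that uses NADPH to keep thioredoxin reduced. It was 8.81, 8.56, 8.44 and 8.94 in the tumours of MYC/REG3A mice 1 to 4, against 8.86, 8.88, 9.09 and 9.14 in their non-tumour livers. The MYC mice had 8.84, 8.53, 8.78 and 8.79 in tumours, against 9.16, 9.08, 9.01 and 8.94 in non-tumour livers. The tumour was lower in 8 of 8 mice. The MYC groups did not overlap, whereas in MYC/REG3A mice the tumour of mouse 4 lay above the non-tumour livers of mice 1 and 2.

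The change of Txnrd1 was of like size in both genotypes, at -0.30 in MYC/REG3A mice (SE 0.119, limma adjusted p = 0.118) and -0.31 in MYC mice (SE 0.119, adjusted p = 0.0677). Over all 8 mice Txnrd1 fell by 0.31 (SE 0.0839, adjusted p = 0.0149), which is 0.807 times the non-tumour level (95% confidence interval 0.709 to 0.919). Of 15 alternatives this call was kept in 14. It was lost without MYC/REG3A mice 2 and 4 together (-0.33, adjusted p = 0.0559), and the adjusted p ranged from 0.00547 to 0.0559. The Txnrd1 promoter with the core match above is 1 of 3 listed for the gene, and the array row does not tell which promoter made the RNA.

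Groups that do not overlap were not rare. Txnrd1 in MYC mice and Hmox1 in MYC/REG3A mice were the only such cases among the 10, that is 1 of 10 in each genotype. Over all tested genes 19.4% separated tumour from non-tumour liver in this way in MYC/REG3A mice and 30.1% in MYC mice.

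**Figure D3:**
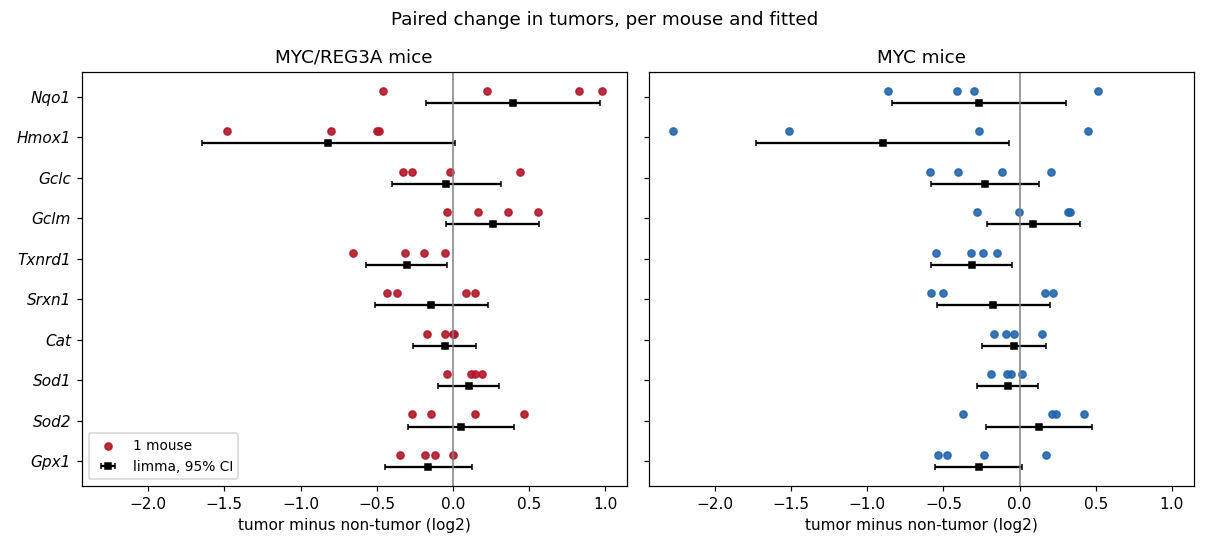
Tumour minus non-tumour difference (log2, x axis) of each of the 10 genes (rows) in MYC/REG3A mice (left) and MYC mice (right); coloured points are single mice and black squares with bars are limma estimates with 95% confidence intervals. Txnrd1 lies left of 0 in all 8 mice and Hmox1 in 7 of 8, and the intervals of the other 8 genes span 0 in both genotypes, as does that of Hmox1 in MYC/REG3A mice.

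Nqo1 encodes the quinone reductase that is the most widely used readout of NRF2. It was 7.14, 7.01, 6.76 and 7.52 in the tumours of MYC/REG3A mice 1 to 4, against 6.32, 6.78, 7.22 and 6.54 in their non-tumour livers. The values in MYC mice were 6.48, 6.43, 6.85 and 6.46 in tumours, against 7.35, 6.73, 6.33 and 6.87 in non-tumour livers. Its groups overlapped in both genotypes. In each genotype mouse 3 went the other way from the remaining 3, with a tumour below its non-tumour liver in MYC/REG3A mouse 3 and above it in MYC mouse 3.

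The paired difference of Nqo1 was 0.39 in MYC/REG3A mice (SE 0.255, limma adjusted p = 0.335) and -0.26 in MYC mice (SE 0.255, adjusted p = 0.459). The estimates have opposite signs, and the difference between them was 0.66 (SE 0.361, unadjusted p = 0.0994, adjusted p = 0.873), with a 95% confidence interval of -0.15 to 1.47. A genotype difference in the Nqo1 tumour change was therefore not shown. Likewise Nqo1 in tumours averaged 7.11 ± 0.32 in MYC/REG3A mice and 6.55 ± 0.20 in MYC mice (SD, n = 4 each). That difference of 0.55 (SE 0.222) had an unadjusted p of 0.0250 and an adjusted p of 0.433 by limma.

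Gclc and Gclm encode the catalytic and modifier subunits of glutamate-cysteine ligase, the rate-limiting enzyme of glutathione synthesis. Gclm was 11.86, 11.57, 11.91 and 12.08 in the tumours of MYC/REG3A mice 1 to 4, against 11.70, 11.60, 11.55 and 11.52 in their non-tumour livers. In MYC mice Gclm was 11.67, 11.62, 12.11 and 12.06 in tumours, against 11.95, 11.62, 11.79 and 11.73 in non-tumour livers. Mice 3 and 4 of both genotypes had more Gclm in the tumour. The other mice showed smaller or opposite differences, so the groups overlapped. Neither difference passed, at 0.26 in MYC/REG3A mice (SE 0.136, limma adjusted p = 0.228) and 0.09 in MYC mice (SE 0.136, adjusted p = 0.644).

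Gclc was 10.73, 10.12, 10.29 and 10.45 in MYC/REG3A tumours, against 10.29, 10.39, 10.62 and 10.47 in the non-tumour livers of mice 1 to 4. The MYC mice had 10.32, 10.14, 10.86 and 10.04 in tumours, against 10.92, 10.55, 10.65 and 10.16 in non-tumour livers. The tumour was lower in 6 of 8 mice, and groups overlapped in both genotypes. The estimates were -0.04 in MYC/REG3A mice (SE 0.159, limma adjusted p = 0.891) and -0.23 in MYC mice (SE 0.159, adjusted p = 0.303). For both subunits the point estimates differ in sign, Gclc below and Gclm above 0, but all intervals include 0.

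Srxn1 encodes sulfiredoxin, which repairs overoxidised peroxiredoxins, and is the member with 3 marked cores in its promoter. It was 8.28, 8.10, 8.39 and 8.67 in the tumours of MYC/REG3A mice 1 to 4, against 8.65, 8.53, 8.30 and 8.53 in their non-tumour livers. Levels in MYC mice were 8.38, 8.60, 8.53 and 7.96 in tumours, against 8.88, 8.43, 8.32 and 8.54 in non-tumour livers. The tumour was higher in 4 mice and lower in 4. The differences were -0.14 in MYC/REG3A mice (SE 0.166, limma adjusted p = 0.608) and -0.17 in MYC mice (SE 0.166, adjusted p = 0.455).

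Sod1 and Sod2 encode the cytosolic copper-zinc and the mitochondrial manganese superoxide dismutase. Sod1 was 12.70, 12.71, 12.90 and 12.84 in the tumours of MYC/REG3A mice 1 to 4, against 12.56, 12.75, 12.78 and 12.65 in their non-tumour livers. In MYC mice Sod1 was 12.59, 12.76, 12.59 and 12.47 in tumours, against 12.64, 12.75, 12.67 and 12.66 in non-tumour livers. All 16 values lay between 12.47 and 12.90. The differences were 0.10 in MYC/REG3A mice (SE 0.0899, limma adjusted p = 0.471) and -0.08 in MYC mice (SE 0.0899, adjusted p = 0.540). Tumours averaged 12.79 ± 0.10 in MYC/REG3A mice and 12.60 ± 0.12 in MYC mice (SD, n = 4 each), a difference of 0.19 (SE 0.0879) with an unadjusted p of 0.0484 and an adjusted p of 0.470 by limma.

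Sod2 was 11.75, 11.48, 11.41 and 11.51 in the tumours of MYC/REG3A mice 1 to 4, against 11.28, 11.62, 11.68 and 11.36 in their non-tumour livers. In MYC mice it was 11.69, 11.34, 11.67 and 11.71 in tumours, against 11.45, 11.71, 11.46 and 11.29 in non-tumour livers. In MYC mice the tumour of mouse 2 was the only one below its non-tumour liver. The differences were 0.05 in MYC/REG3A mice (SE 0.155, limma adjusted p = 0.860) and 0.13 in MYC mice (SE 0.155, adjusted p = 0.569).

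Cat encodes catalase, the peroxisomal enzyme that splits hydrogen peroxide. It was 12.75, 12.82, 12.94 and 12.84 in the tumours of MYC/REG3A mice 1 to 4, against 12.80, 12.98, 12.93 and 12.84 in their non-tumour livers. The values in MYC mice were 12.74, 12.82, 12.84 and 12.81 in tumours, against 12.83, 12.99, 12.69 and 12.85 in non-tumour livers. Tumour and non-tumour levels were nearly level throughout. Over all 8 mice the tumour level was 0.969 times the non-tumour level, with a 95% confidence interval of 0.875 to 1.07. Within groups Cat and Sod1 varied little: their residual SD was 0.0860 and 0.0962, at the 1.23 and 2.35 percentiles of all tested genes, where the median gene had 0.206. Their mean log2 levels of 12.84 and 12.69 lay near the top of the scale, where the highest value of an array was 13.55 to 13.68. Whether values this high narrow the differences seen was not tested.

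Gpx1 encodes the main cytosolic glutathione peroxidase, a selenoprotein. It was 9.58, 9.93, 9.98 and 9.91 in the tumours of MYC/REG3A mice 1 to 4, against 9.93, 10.12, 10.10 and 9.90 in their non-tumour livers. Levels in MYC mice were 9.68, 9.36, 9.77 and 10.08 in tumours, against 10.16, 9.90, 10.01 and 9.90 in non-tumour livers. The tumour was lower in mice 1 to 3 of each genotype and not in mouse 4. The differences were -0.16 in MYC/REG3A mice (SE 0.128, limma adjusted p = 0.434) and -0.27 in MYC mice (SE 0.128, adjusted p = 0.134). Without MYC mouse 4 the difference in MYC mice was -0.42 and passed (adjusted p = 0.0397), and the adjusted p ranged from 0.0397 to 0.377 over 16 alternatives.

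**Figure D4:**
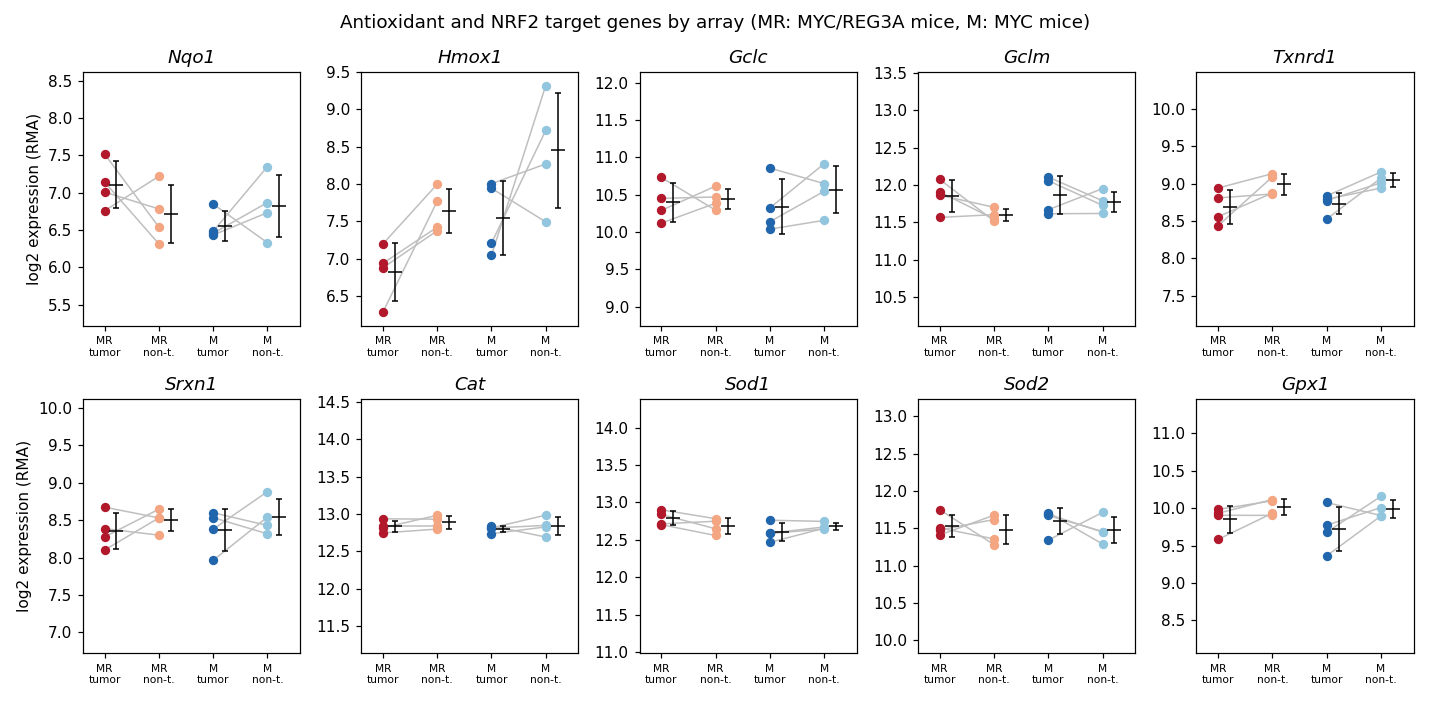
Log2 expression (y axis, every panel spanning the same number of log2 units) of the 10 genes in MYC/REG3A tumour, MYC/REG3A non-tumour, MYC tumour and MYC non-tumour liver; points are arrays, grey lines join the samples of 1 mouse, and black bars show the mean ± SD of 4 arrays. Hmox1 spreads most, from 6.28 to 9.32, and Cat and Sod1 least.

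The second question was whether the REG3A transgene goes with other levels of these genes. None of the 10 passed in non-tumour liver, in tumours or in the difference of the tumour changes. Few genes passed at all: 0% of the tested genes in MYC/REG3A against MYC non-tumour liver, 0.0221% in MYC/REG3A against MYC tumours and 0.00738% in the difference of the changes. At an unadjusted p under 0.05 the members counted 1, 3 and 0 of 10 in these comparisons, against 5.45%, 10.6% and 5.58% of all tested genes.

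Hmox1 was the member with the largest genotype difference. In non-tumour liver it averaged 7.64 ± 0.30 in MYC/REG3A mice and 8.45 ± 0.77 in MYC mice (SD, n = 4 each), a difference of -0.81 (SE 0.330, unadjusted p = 0.0266, limma adjusted p = 0.904). In tumours it averaged 6.82 ± 0.39 in MYC/REG3A mice and 7.55 ± 0.49 in MYC mice (SD, n = 4 each), a difference of -0.73 (SE 0.330, unadjusted p = 0.0435, limma adjusted p = 0.464). The groups overlapped in both tissues. The macrophage list had median differences of -0.40 in non-tumour liver and -0.37 in tumours, with 0 of 15 genes called in either. The neutrophil list, with 5 tested genes, had medians of -0.69 and -0.70 and 0 called, and the mean of all 8 genes listed for it correlated with Hmox1 at 0.561 within groups over the 16 arrays. Other lists had like medians in non-tumour liver: -0.41 for stellate cells, -0.33 for sinusoidal endothelium and -0.35 for handling and heat stress. In tumours these were -0.09, 0.10 and -0.04. The hepatocyte list went the other way, at 0.20 and 0.05, and 0 genes of these lists were called. The part of these cell types or of handling in the genotype difference was not tested.

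The change of Hmox1 in tumours was nearly the same size in both genotypes. The difference between the changes was 0.08, with a 95% confidence interval of -1.09 to 1.26. With 4 mice per genotype, a difference of about 1 log2 unit in either direction thus lay within the interval. For Txnrd1 the interval was narrower, from -0.36 to 0.39 around 0.01.

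Members did not vary together strongly within groups. Over 16 arrays the highest correlations of deviations from the group means were 0.57 between Nqo1 and Txnrd1 and 0.57 between Cat and Sod1, and the lowest was -0.42 between Srxn1 and Sod2. These are descriptions over arrays that share mice. No gene most like one member was itself another member. The closest to Nqo1 were Spty2d1 (r = 0.87) and Dab2 (0.84), to Txnrd1 Depdc5 (0.90) and Csrp2 (0.88), and to Cat Acad11 (0.91) and Ss18l2 (0.89). Gclc was closest to Ces2d-ps (0.93), Gclm to Ccdc187 (0.90), Srxn1 to Cd151 (0.85), Sod1 to Tor1a (0.91), Sod2 to Grsf1 (0.90) and Gpx1 to Erbin (0.85).

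Nfe2l2, the gene of NRF2 itself, was 10.55, 10.39, 10.93 and 10.88 in the tumours of MYC/REG3A mice 1 to 4, against 10.21, 10.53, 10.52 and 10.44 in their non-tumour livers. In MYC mice it was 11.22, 10.69, 11.09 and 11.09 in tumours, against 10.89, 10.48, 10.63 and 10.43 in non-tumour livers. The tumour was higher in all MYC mice and in all MYC/REG3A mice but mouse 2. Nfe2l2 rose in MYC tumours by 0.42 (SE 0.123, limma adjusted p = 0.0276), a call lost without MYC mouse 1, 3 or 4. In MYC/REG3A mice the difference was 0.26 (SE 0.123, adjusted p = 0.183), and over all 8 mice Nfe2l2 rose by 0.34 (SE 0.0871, adjusted p = 0.0112). In that mean, added after the data had been seen, 43% of all tested genes passed, and no alternatives are given here for Nfe2l2.

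Of the 12 tested regulators, 1 rose and 0 fell in MYC/REG3A tumours, and 2 rose and 2 fell in MYC tumours, where 12.5% and 33.2% of all tested genes passed, so these counts are near the background. Bach2, a BACH1 relative of lymphoid cells, fell in MYC tumours by 1.40 (SE 0.259, limma adjusted p = 0.00382). Bach1 fell there by 0.43 (SE 0.139, adjusted p = 0.0398), a call lost without any 1 of the 4 MYC mice, without MYC/REG3A mouse 2 and with no replicate block or a random one. Btrc, a ubiquitin ligase subunit that marks NRF2 for degradation, rose there by 0.45, a call lost without MYC mouse 1, 2 or 4, without MYC/REG3A mice 2 and 4 and with only the groups compared. Gsk3b, a kinase acting ahead of that ligase, rose in MYC/REG3A tumours by 0.61, a call lost without mouse 1 or 3. Keap1 differed by -0.05 in MYC/REG3A tumours and 0.08 in MYC tumours, Nfe2l1 by -0.03 and -0.25, and Mafg by 0.22 and 0.14, none of which passed. In MYC/REG3A tumours Bach1 differed by 0.04 and Bach2 by -0.58, neither of which passed.

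Related genes outside the 10 changed in both directions. Of 158 tested genes on 11 lists of related functions, 17 passed in MYC/REG3A tumours, 9 higher and 8 lower, which is 10.8% where 12.5% of all genes passed. In MYC tumours 46 passed, 22 higher and 24 lower, which is 29.1% where 33.2% of all genes passed. When each mouse of the genotype was left out in turn, 2 of the 17, Gpx7 and Selenow, and 19 of the 46 passed every time. None of the 158 passed in any of the 3 comparisons that set the genotypes against each other. A gene called in a single genotype is thus not shown to differ between genotypes. The counts of each list below stand against the shares of all tested genes. These were 7.58% higher and 4.88% lower in MYC/REG3A tumours, and 17.4% higher and 15.8% lower in MYC tumours. Whether any list differs from these shares was not tested.

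Among 24 tested further NRF2 targets, 1 rose and 1 fell in MYC/REG3A tumours, and 4 rose and 3 fell in MYC tumours. These shares are near those of all tested genes, of which 7.58% rose and 4.88% fell in MYC/REG3A tumours and 17.4% rose and 15.8% fell in MYC tumours. Gsr, glutathione reductase, was 7.65, 8.11, 8.21 and 7.96 in MYC tumours, against 8.52, 8.42, 8.72 and 8.78 in the non-tumour livers of mice 1 to 4. It fell by 0.63 (SE 0.130, limma adjusted p = 0.00576), a call kept under all 16 alternatives, and in MYC/REG3A tumours it differed by -0.14 (SE 0.130, adjusted p = 0.496). Its difference between genotypes was 0.48 (SE 0.183, adjusted p = 0.873) and did not pass. Trib3, a stress-induced pseudokinase, rose by 0.54 in MYC/REG3A tumours and 0.75 in MYC tumours; the first call was lost without MYC/REG3A mouse 1, 3 or 4, without MYC/REG3A mice 2 and 4 together or without MYC mouse 4. Blvrb, biliverdin reductase B, fell in MYC tumours by 0.97 (call lost without MYC mouse 1, 2 or 4), and Ugdh, which makes UDP-glucuronate, rose by 0.79 (lost without MYC mouse 2, 3 or 4). Osgin1 fell by 0.74 in MYC/REG3A tumours (SE 0.212, limma adjusted p = 0.0489) and 0.72 in MYC tumours (SE 0.212, adjusted p = 0.0265). The first call was kept in 6 of 16 alternatives: it was lost with no replicate block or a random one, without MYC/REG3A mouse 1, 3 or 4, without MYC/REG3A mice 2 and 4, without MYC mouse 1 or 4, with no filter and with the mean of a gene's rows. The second was lost with no replicate block and without MYC mouse 1, 2 or 4.

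Txnrd2 and Gpx7 rose in the tumours of both genotypes. In the list of glutathione peroxidases, peroxiredoxins and thioredoxins 2 of 15 rose and 0 fell in MYC/REG3A tumours, and 4 rose and 0 fell in MYC tumours. Of all tested genes 7.58% and 17.4% rose in these comparisons, and 4.88% and 15.8% fell. Txnrd2, the mitochondrial thioredoxin reductase, rose by 0.81 in MYC/REG3A tumours (SE 0.163, limma adjusted p = 0.0166; lost without mouse 1 or 3) and by 0.78 in MYC tumours (SE 0.163, adjusted p = 0.00622). Its cytosolic counterpart Txnrd1 differed by -0.30 and -0.31, which did not pass in either genotype alone. Txnrd1 passed as lower in the mean over all 8 mice, a call lost without MYC/REG3A mice 2 and 4. Txn2, mitochondrial thioredoxin, rose in MYC tumours by 0.87 (SE 0.140). In MYC/REG3A tumours Txn2 differed by 0.47 and did not pass (SE 0.140, limma adjusted p = 0.0536). Gpx7, a glutathione peroxidase of the endoplasmic reticulum, rose by 0.80 in MYC/REG3A tumours (SE 0.121, adjusted p = 0.00713) and 0.73 in MYC tumours (SE 0.121, adjusted p = 0.00242). Sesn3, a sestrin, rose in MYC tumours by 0.66, a call lost without MYC mouse 1, 3 or 4, without MYC/REG3A mice 2 and 4, with only the groups compared and with no filter. Txnip, the inhibitor of thioredoxin, differed by -0.44 and -0.56 without passing in either genotype, and fell by 0.50 over all 8 mice (SE 0.143, adjusted p = 0.0188). In that mean, added after the data had been seen, 43% of all tested genes passed, and no alternatives are given here for Txnip.

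In glutathione synthesis and reduction 1 of 17 rose and 0 fell in MYC/REG3A tumours, and 5 rose and 2 fell in MYC tumours. Ggct, which cleaves gamma-glutamyl peptides, rose in MYC tumours by 1.25 (SE 0.270, limma adjusted p = 0.00718). Glrx3 and Glrx5, glutaredoxins of iron-sulfur cluster handling, rose there by 0.67 and 0.74. In MYC/REG3A tumours Glrx5 rose by 0.56, a call lost without any 1 of the 4 mice, without mice 2 and 4 together, with no replicate block, with only the groups compared and with the mean of a gene's rows. Glrx3 differed by 0.52 in MYC/REG3A tumours (SE 0.152, limma adjusted p = 0.0509) and Ggct by 0.48 (SE 0.270, adjusted p = 0.264), neither of which passed.

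Txnrd1 and Gpx1 are selenoproteins. Of 20 other tested genes of selenoproteins and their synthesis, 1 rose and 2 fell in MYC/REG3A tumours, and 1 rose and 4 fell in MYC tumours, with medians of -0.05 and -0.03. Selenow, a small selenoprotein that binds glutathione, fell by 0.69 in MYC/REG3A tumours (SE 0.117, limma adjusted p = 0.00977) and fell by 1.28 in MYC tumours (SE 0.117, adjusted p = 0.000406). Selenos and Msrb1, a methionine sulfoxide reductase, fell in MYC tumours by 0.41 and 0.68, the first call lost without MYC mouse 3 or 4, with no replicate block and with the mean of a gene's rows, the second without MYC mouse 2 or 4. Dio1, a deiodinase, fell in MYC/REG3A tumours by 0.90, a call kept in 7 of 16 alternatives: it was lost without any 1 of the 4 mice, without mice 2 and 4 together, without MYC mouse 4, with no replicate block or a random one and with no filter.

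Of 9 tested genes that make or remove superoxide, 0 rose and 1 fell in MYC/REG3A tumours, and 0 rose and 4 fell in MYC tumours. Sod3, the extracellular superoxide dismutase, fell by 0.71 in MYC/REG3A tumours (lost without mouse 1, 3 or 4 and with only the groups compared) and 0.82 in MYC tumours. Xdh, xanthine dehydrogenase, fell in MYC tumours by 0.71. Ncf1 and Ncf4, subunits of the phagocyte NADPH oxidase, fell there by 0.88 and 0.50, the first call lost without MYC mouse 1 or 4, the second without MYC mouse 1, 3 or 4 or without MYC/REG3A mice 2 and 4, and both with only the groups compared. Both are genes of phagocytes, and the macrophage list moved in the same direction, as given with Hmox1.

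Around haem, the substrate of heme oxygenase, 1 of 15 tested genes of haem and iron handling rose and 2 fell in MYC/REG3A tumours, and 3 rose and 3 fell in MYC tumours. Tfrc, the transferrin receptor, rose by 1.71 in MYC/REG3A tumours (SE 0.301, limma adjusted p = 0.0104) and 1.63 in MYC tumours (SE 0.301, adjusted p = 0.00381). Tfr2, the iron-sensing receptor of hepatocytes, fell by 0.66 and 0.70, and Fech, which completes haem synthesis, fell by 0.52 and 0.49. In MYC/REG3A mice the calls of Tfrc and Fech were lost without mouse 1 or 3, and that of Tfr2 without mouse 1, 3 or 4 and with no replicate block.

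In NADPH supply 1 of 12 tested genes rose and 1 fell in MYC/REG3A tumours, and 1 rose and 2 fell in MYC tumours. Aldh1l1, a folate enzyme that makes NADPH, fell by 0.91 in MYC/REG3A tumours (lost without mouse 3) and 0.78 in MYC tumours. Idh2, the mitochondrial isocitrate dehydrogenase, rose by 0.64 and 0.51, the first call lost without MYC/REG3A mouse 1, 3 or 4 or mice 2 and 4 together, the second without MYC mouse 2, 3 or 4. Me2, mitochondrial malic enzyme, fell in MYC tumours by 0.76, a call lost without MYC mouse 3 or 4 and with no replicate block or a random one.

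Catalase works in peroxisomes, of whose 23 other tested genes 1 rose and 0 fell in MYC/REG3A tumours, and 4 rose and 1 fell in MYC tumours. Scp2, a sterol carrier and thiolase, rose by 0.49 in MYC/REG3A tumours (lost without mouse 1, 3 or 4, without mice 2 and 4 together and with only the groups compared) and 0.61 in MYC tumours, and Pex10, a factor of peroxisome import, rose in MYC tumours by 0.59. Hao1, an oxidase that makes hydrogen peroxide, rose in MYC tumours by 0.74 (lost without MYC mouse 1 or 4), and Abcd3, a transporter of the peroxisome membrane, fell by 0.80 (lost without MYC mouse 1 or 2).

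**Figure D5:**
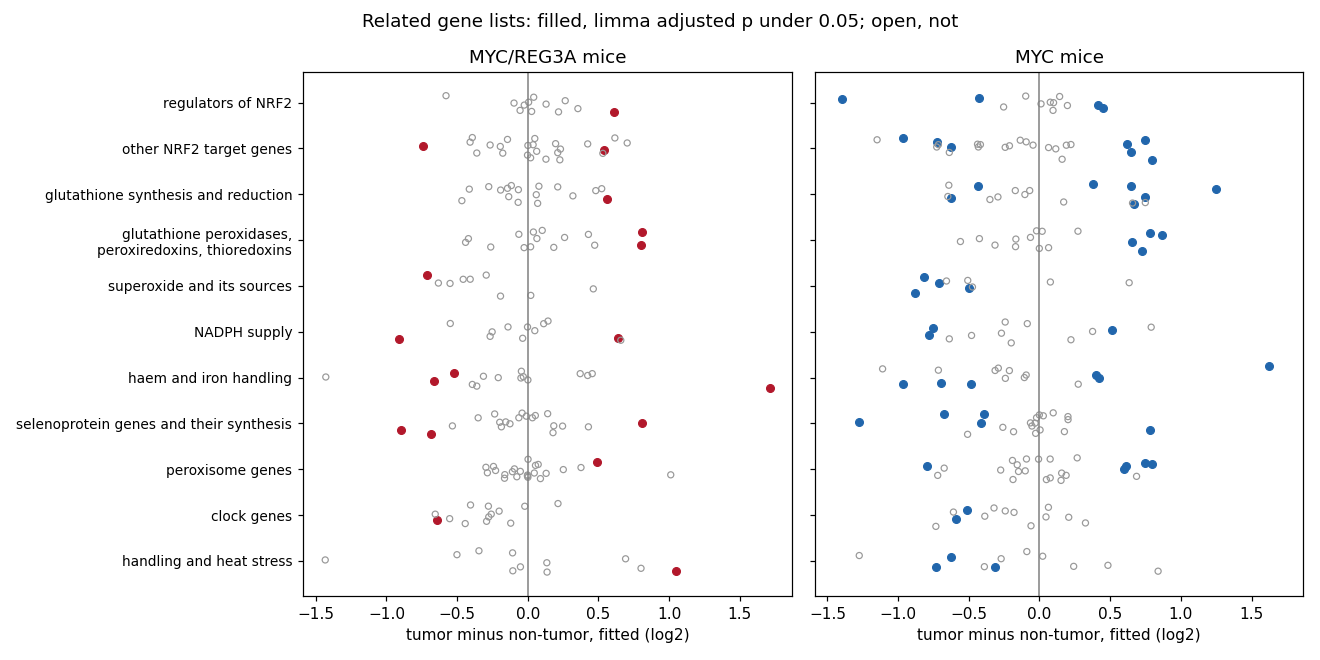
Fitted tumour minus non-tumour difference (log2, x axis) of every tested gene of 11 related lists (rows) in MYC/REG3A mice (left) and MYC mice (right); filled points passed limma's adjusted p under 0.05 and open points did not, and vertical scatter within a row has no meaning. Among the MYC/REG3A points 17 distinct genes are filled, and among the MYC points 46, with Tfrc farthest to the right in both at 1.71 and 1.63.

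Genes that respond to time of day and to handling of tissue were listed as well. As before, the shares of all tested genes were 7.58% higher and 4.88% lower in MYC/REG3A tumours. In MYC tumours they were 17.4% higher and 15.8% lower. Of 13 tested clock genes 0 rose and 1 fell in MYC/REG3A tumours, and 0 rose and 2 fell in MYC tumours. Of 11 genes of handling and heat stress 1 rose and 0 fell in MYC/REG3A tumours, and 0 rose and 3 fell in MYC tumours. Other cell type markers also moved with tissue: of 10 genes of sinusoidal endothelium 6 fell and 1 rose in MYC/REG3A tumours and 8 fell in MYC tumours, and of 10 stellate cell genes 4 and 6 fell. Of 10 genes of pericentral hepatocytes 0 passed in MYC/REG3A tumours and 8 fell in MYC tumours, with median changes of -0.51 and -1.71. Their mean log2 level ran from 8.12 to 10.82 in MYC/REG3A tumours and from 7.78 to 8.72 in MYC tumours. In the difference of the tumour changes between genotypes 0 of these 10 passed. Of 11 general hepatocyte genes 1 fell in MYC/REG3A tumours and 4 in MYC tumours. Of 5 tested genes each, 3 and 4 fell among B and plasma cell genes, 0 and 3 among neutrophil genes and 0 and 3 among bile duct genes, and 0 of 4 T cell genes and 0 of 1 red cell genes passed in either genotype. Of 2 tested adipocyte genes 1 rose in each genotype. The part of these cells in the changes above was not tested.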

How the data were processed

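Expression was measured with a 1-colour Affymetrix mouse array in 16 liver samples. Per the submitters' processing notes, the authors made the deposited log2 values by RMA with Affymetrix Expression Console 1.4.1; its settings and the array's genome build are not given in the sources used here. RMA equalises the arrays' distributions, so differences are relative to the other genes. No detection calls were used, so signal over background is unknown, and 4 mice per genotype limit the precision.

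Genes were named from platform annotation (23521 of 41345 rows with 1 symbol, 1814 with several, 16010 with none), and 23328 of those rows matched RefSeq. The row with the highest mean stood for a gene. A gene was tested when it exceeded the array's median in at least 4 arrays. The 13555 genes were fitted with limma 3.58.1 in R 4.3.3 (lmFit, eBayes, 2-sided, Benjamini-Hochberg over all genes, threshold 0.05). The mouse was a block in the tumour comparisons and in their difference, since titles pair its samples. Deviations within a mouse correlated at 0.0963 to 0.325. In MYC/REG3A mouse 3 (0.0963) the non-tumour liver correlated more with the tumour of another MYC/REG3A mouse than with its own. Comparisons between genotypes used group means without a block. Standard errors (SE) and p-values rest on a spread per gene pooled over all groups. No 2 arrays were identical (0 pairs). Alternatives were the block, left-out mice, the arrays fitted, the filter, rows, centring and the eBayes trend. The fit was tested on simulated data.

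The 10 genes, the 11 pathway lists and the 11 marker lists were chosen with earlier results of these data known; the mean over both genotypes was added after the data were seen. Named genes were the 10, Nfe2l2, Keap1, Bach1, Nfe2l1, Mafg, Myc and Txnip, up to 4 genes of lowest p per list and comparison, and the 2 genes most like each of the 10. Promoters are from RefSeq.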

Additional observations from a re-analysis of the deposited data

Results flagged for a closer look

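Within groups of 4 arrays, 2 values of the 10 genes lay far from the other 3 by Dixon's test at the 95% level. Nqo1 in the tumour of MYC mouse 3 was 6.85, above the other 3 MYC tumours, which lay between 6.43 and 6.48. Sod2 in the tumour of MYC mouse 2 was 11.3, below the other 3 MYC tumours, which lay between 11.67 and 11.71. 40 groups were tested, of which chance alone flags about 2.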

How the results depend on the processing

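Across the alternatives run, no called member changed sign. In the 3 comparisons that set the genotypes against each other, 0 of the 10 genes passed under every alternative. In MYC mice, where 0 passed in the tumour comparison, 1 passed with no replicate block (Hmox1, limma adjusted p = 0.0477), 2 with the mouse as a random replicate block (Hmox1, 0.0406, and Txnrd1, 0.0401) and 1 with arrays centred on the median of tested genes (Txnrd1, 0.0461). Leaving out 1 mouse at a time gave 0 to 1 in MYC mice: Hmox1 passed without MYC mouse 2, Gpx1 without MYC mouse 4 and Txnrd1 without MYC/REG3A mouse 3 (0.0496). In MYC/REG3A mice, where 0 passed, 1 passed when only the groups compared were fitted (Hmox1, SE 0.181, adjusted p = 0.0387), and none when 1 mouse was left out. Over both genotypes, where 2 passed, 0 passed without MYC/REG3A mice 2 and 4, and 1 to 2 with 1 mouse left out; without MYC mouse 4 these were Gpx1 (-0.29, adjusted p = 0.0222) and Txnrd1. The causes were not tested, except that leaving out mice reduces the samples. The choice of members, the absence of mice without transgenic MYC, and the unknown signal over background limit all results.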
